A study of Strongylocentrotus purpuratus and Patiria miniata with 14 samples.

Results

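Early-only regions were stretches of the purple sea urchin genome in which chromatin was called open in both replicates at early blastula and in no library of a later stage. Peaks of all 8 sea urchin lists that overlapped by at least 1 bp were merged, without the mitochondrial genome, which gave 115446 merged regions. Of these, 3522 (3.05%) held a peak in both 11 hpf lists and in none of the 6 later lists, and these are the early-only regions. They covered 0.885 Mb, which was 3.34% of the sequence in merged regions. The regions were chosen by the peak calls themselves, so all values of the same lists are given as a description, with no test.

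Open chromatin was profiled by ATAC-seq, in which a transposase cuts accessible DNA and leaves sequencing adapters there. Wild-type whole embryos were collected at 11 hpf (hours post fertilization), the early blastula, at 24 hpf, the mesenchyme blastula, at 66 hpf, the prism larva, and at 72 hpf, the pluteus, with 2 replicates each, and embryos of 48 hpf were not analysed here. Whether the 2 replicates of a stage were separate cultures is not given in the sources used here, and their spread may be technical only. A whole embryo mixes all its cells, so more open cells and more open chromatin per cell cannot be told apart.

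At the blastula stage the sea urchin embryo is a hollow ball of cells in which the embryo's own genes are already transcribed and the future germ layers begin to differ. Signals and transcription factors of that time act through cis-regulatory elements, short stretches of DNA that are usually open while factors bind them. Some elements serve only in the early embryo, whereas others are used again in the tissues of the larva.

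The lists held 25453 to 34914 peaks at 11 hpf and 19459 to 56842 at the later stages. The fold enrichment of a peak is its summit signal over the local background, with 1 read added to both. Together with the p-value of the peak it fixed the pileup, the number of read ends (each extended to 100 bp) that covered the summit. The genome-wide background was 1.47 and 1.38 reads in the 11 hpf lists and 0.745 to 1.27 reads in the later ones, and this background is taken here as the measure of depth. The median peak was also narrower at 11 hpf, at 132 and 129 bp, against 171 to 241 bp later. The weakest q of a list was 0.0169 to 0.0451, and a stretch without a peak is one with no call past that limit, not one shown to be closed. Of the 11 hpf peaks, 46.0% in replicate 1 and 38.3% in replicate 2 overlapped no peak of any other list.

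Both 11 hpf lists shared 10268 regions, of which the early-only regions made up 34.3% (33.4 to 35.2%, an exact 95% Clopper-Pearson interval, which like all intervals of shares here covers counting error alone). The other 6746 held a later peak and are called shared regions. Regions called in both lists of a stage and nowhere else were 816 of 17920 at 24 hpf (4.55%), 2543 of 25812 at 66 hpf (9.85%) and 184 of 13222 at 72 hpf (1.39%). As shares of all merged regions these sets made up 0.707%, 2.2% and 0.159%. Early blastula therefore had the largest such set of the 4 stages by count and by share. The stages are unevenly spaced in time, with 66 and 72 hpf close together, 11 hpf further from its nearest stage and 48 hpf left out. The 11 hpf lists were also the deepest, with backgrounds of 1.47 and 1.38 reads against 0.745 to 1.27 later. Of their peaks, 46.0% and 38.3% overlapped no other list, against 10.04 to 27.6% in the later lists. The shortest list was replicate 2 of 72 hpf, with 19459 peaks, which limits the set of that stage. Spacing, depth and list length can all move these counts and shares, and the difference was not tested. A further 16075 regions were called in replicate 1 of 11 hpf and no other list, and 9743 in replicate 2 and no other list, so calls of 1 early replicate outnumbered the early-only regions. With replicate 1 or replicate 2 of 11 hpf left out, the other early list alone gave 13676 or 19948 such regions. The count was 2113 where the 11 hpf peaks had to cover 50% of each other, and 5519 where only regions of both lists of a later stage were left out.

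The regions of both 11 hpf lists fell mostly at the ends of the scale of later calls. Early-only regions and the 3058 regions called in all 6 later lists together made up most of them, whereas 1401 regions had a peak in 1 later list and 465 to 690 in each number from 2 to 5. The 11 hpf signal followed the same scale. The median fold enrichment in replicate 1 was 4.29 with no later list, 4.48 with 1, 4.74 with 2, 4.79 with 3, 4.95 with 4, 5.06 with 5 and 5.47 with 6. Over the same steps the median width was 239, 287, 317, 337, 355, 394 and 555 bp, and part of that follows from merging more lists.

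**Figure D1:**
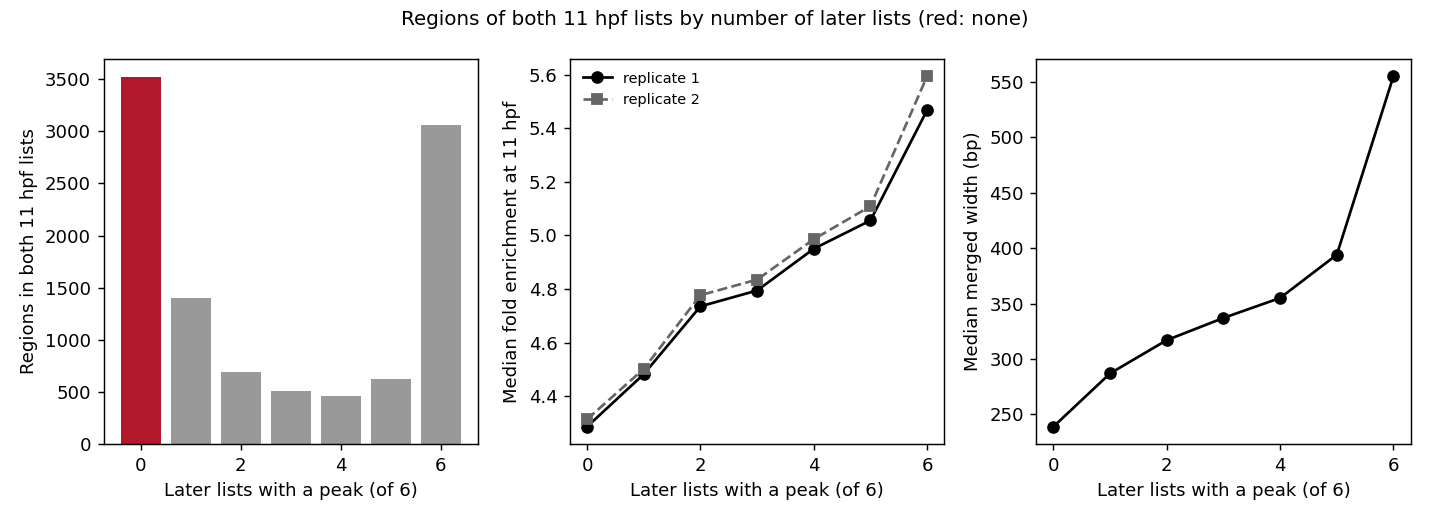
Regions of both 11 hpf lists by the number of the 6 later lists with a peak: number of regions (left), median fold enrichment at 11 hpf in each replicate (middle; the axis does not start at 0) and median merged width in bp (right; the axis does not start at 0). The 3522 early-only regions, in red, are the most numerous class, and their median fold enrichment and width are the lowest of the 7 classes.

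Early-only regions were weaker and narrower than shared regions in both replicates. Their median fold enrichment was 4.29 in replicate 1 and 4.31 in replicate 2, against 5.0 and 5.04 in shared regions. The range was 2.11 to 17.4 and 2.28 to 18.9 in early-only regions, against 2.17 to 26.5 and 2.18 to 28.9 in shared regions. The median summit pileup was 14 reads in both replicates, against 17 and 16 reads in shared regions. The ranges overlapped over nearly all early-only regions, and the highest values were those of shared regions.

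Few early-only regions were strong. A p of at most 1e-10 in both replicates was reached by 159 of them (4.51%, 3.85 to 5.25%), against 2034 shared regions (30.2%, 29.1 to 31.3%). A p of at most 1e-20 was reached by 13 early-only regions and 269 shared regions. Ranked within the whole list of each replicate, 76 early-only regions stood in the strongest 10% of both lists (2.16%), against 1469 shared regions (21.8%). The median early-only region stood at the strongest 42.7% of the replicate 1 list and 48.5% of the replicate 2 list.

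The rule asked for a peak in both 11 hpf lists, so closeness of the replicates is partly set by it. Fold enrichments of early-only regions also spanned a narrow range. Their quartiles were 3.77 and 4.89 in replicate 1 and 3.84 and 4.89 in replicate 2. Values within 1.5 times and near summits in narrow regions are therefore no measure of agreement. The fold enrichments lay within 1.5 times of each other in 95.7% of early-only regions, against 94.6% of shared regions. The summits lay within 50 bp of each other in 52.6% of early-only and 51.1% of shared regions, at a median of 47 and 48 bp. Replicate 1 was the higher of the pair in 48.1% of early-only regions. Across the 3522 regions, which share their libraries and depth, Spearman's rho of the fold enrichments was 0.473, against 0.654 across the shared regions. Most early-only regions, 90.5%, were 1 peak in each list, against 75.2% of shared regions. Later peaks can join neighbouring 11 hpf peaks into 1 shared region, so part of this difference follows from merging.

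**Figure D2:**
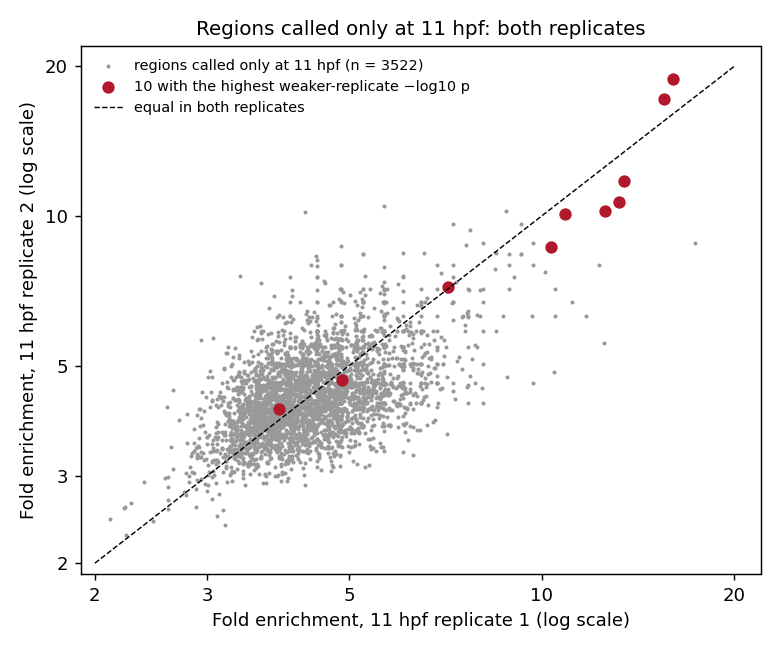
Fold enrichment of each of the 3522 early-only regions in replicate 2 against replicate 1 of 11 hpf, both on log scales, with the 10 regions of highest weaker-replicate −log10 p in red and the line of equal values dashed. Most regions lie between 3 and 6 in both replicates, and the 10 red regions lie close to the line, 2 of them far down it at 3.88 and 4.09 and at 4.86 and 4.68.

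Depth differed between the libraries, and the 11 hpf values were therefore also scaled to the depth of each later list. The pileup and local background of each summit were multiplied by the ratio of genome-wide backgrounds and set against the weakest p of the later list, with no sampling noise added. The scaled values of early-only regions passed in 84.3% (72 hpf replicate 2) to 100% (66 hpf replicate 2) of cases in a given later list, and 2968 regions (84.3%) passed in all 6. The scaled values of shared regions passed in 94.5 to 100%, whereas only 57.1 to 72.9% of shared regions were called in a given later list. Passes thus outnumbered calls among shared regions. Shared regions without a call may be less open at that stage, so the gap does not measure how well the scaling foretells a call. The scaling starts from 11 hpf values that had to pass in both early lists, which favours high ones. It also leaves out the share of reads in peaks. The part of depth in the missing later calls was not tested.

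**Figure D3:**
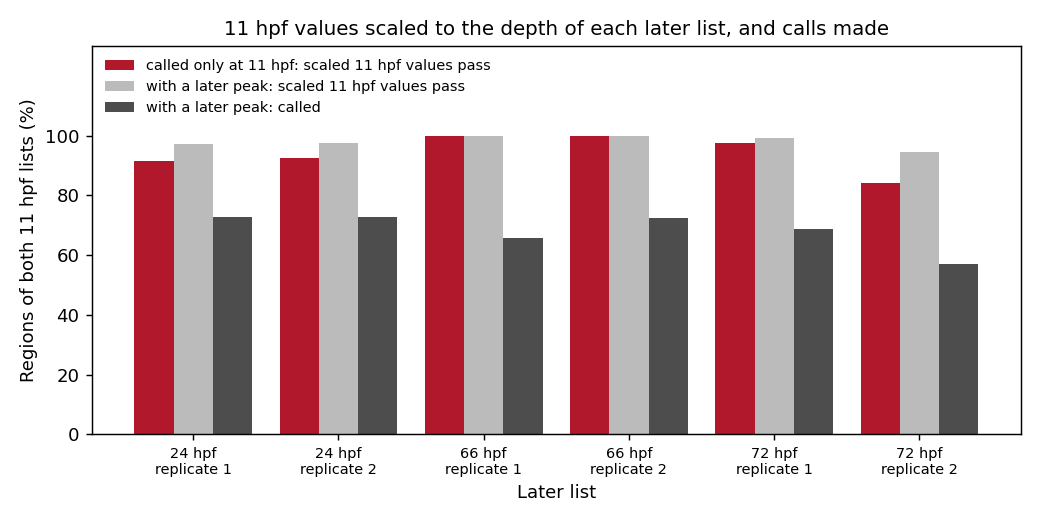
Share of regions of both 11 hpf lists, in %, whose 11 hpf values, scaled to the depth of each later list, passed its weakest p, for early-only regions (red) and shared regions (light grey), and the share of shared regions that was called (dark grey). The light grey bars stand between 94.5 and 100% and the dark bars between 57.1 and 72.9%, so passes exceeded calls in each list, and the red bars stand between 84.3 and 100%.

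The −log10 p of the weaker replicate set the order of strength, and coordinates are those of the build Spur_5.0. First came positions 1610297 to 1610816 of NW_022145576.1, where replicate 1 had a fold enrichment of 15.6 and replicate 2 one of 17.2, from pileups of 48 and 40 reads over local backgrounds 1.46 times and 1 time that of the genome. The next lay near the start of NW_022145596.1, from 13984 to 14251. Its fold enrichments were 16.1 and 18.9, and the summits of the replicates were 2 bp apart. No peak of any later list lay within 5 kb of that region, and the nearest was 7756 bp away. In the replicate 1 list they stood at the strongest 0.0773% and 0.152% of peaks, and in the replicate 2 list at the strongest 0.126% and 0.0943%.

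A further 4 of the 10 strongest had local backgrounds of 1 to 2.02 times that of the genome. The region on NW_022145603.1 from 13143404 to 13143689 had fold enrichments of 10.9 and 10.1. The one on NW_022145606.1 from 11730549 to 11730855 had 12.6 and 10.2. On NW_022145520.1, from 586561 to 586839, they were 13.4 and 11.7, and on NW_022145556.1, from 498638 to 498990, they were 13.2 and 10.7. These 4 lay 2440, 3924, 2568 and 25947 bp from the nearest later peak. Another, on NW_022145597.1 from 1850189 to 1850412, had fold enrichments of 7.13 and 7.21 over a background 4.46 and 4.19 times that of the genome, and a later peak 157 bp away.

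Among the 10 strongest, 2 had the deepest pileups over a high local background. On NW_022145595.1 from 29975775 to 29976048 the pileups were 116 and 106 reads and the fold enrichments 3.88 and 4.09, over a local background that was 19.8 and 18.2 times that of the genome. Later peaks within 5 kb of it had backgrounds of 4.55 to 8.52 times their own genome background at 24 hpf, 3.73 to 5.71 times at 66 hpf and 2.46 to 4.74 times at 72 hpf. The widest early-only region, 1137 bp on NW_022145611.1 from 30130086 to 30131222, was of the same kind, with pileups of 94 and 84 reads and backgrounds of 12.6 and 12.4 times. Around it the later backgrounds were 4.90 to 6.80 times at 24 hpf, 4.03 to 7.17 times at 66 hpf and 3.46 to 6.04 times at 72 hpf, and a later peak lay 132 bp away. At both places the background was above that of the genome at every stage and, relative to it, higher at 11 hpf than at any later peak within 5 kb.

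The other 4 of the 5 widest regions were 895 to 1066 bp wide and of middling strength. The region from 23819193 to 23820258 on NW_022145611.1 had fold enrichments of 4.36 and 4.10. The one from 16834533 to 16835461 on NW_022145613.1 had 3.89 and 4.01, with a later peak only 18 bp away. The one from 2292967 to 2293862 on NW_022145615.1 had 3.20 and 3.32, with a later peak 8 bp away. The one from 763976 to 764870 on NW_022145549.1, within the span of the protein-coding gene LOC105436450, had 4.15 and 3.62, and its nearest later peak was 18941 bp away.

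A high local background was uncommon among early-only regions. It was at least 3 times that of the genome in both replicates in 205 of them (5.82%, 5.07 to 6.65%), against 323 shared regions (4.79%, 4.29 to 5.32%). In 56 of the 205 a later peak lay within 1 kb, near enough for the 10 kb windows behind both backgrounds to overlap for the most part. The 35 of these next to a 24 hpf peak had median backgrounds of 4.76 and 4.24 times in replicates 1 and 2 of 11 hpf, against 4.27 times at 24 hpf. The 41 next to a 66 hpf peak had 4.80 and 4.42 times at 11 hpf, against 3.73 times at 66 hpf. The 33 next to a 72 hpf peak had 4.99 and 4.89 times at 11 hpf, against 3.86 times at 72 hpf. These regions were chosen for a high 11 hpf background, which by itself favours a lower later value. Without that choice, all early-only regions within 1 kb of a 24 hpf peak had medians of 1.831 and 1.822 times at 11 hpf, against 1.663 times at 24 hpf. For 66 hpf peaks these were 1.859 and 1.858 against 1.729 times, and for 72 hpf peaks 1.797 and 1.764 against 1.766 times. The part that a high background has in these calls was not tested.

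Near the rule's edge, the strongest regions with a peak in just 1 later list had fold enrichments in the range of the strongest early-only regions or above it. The first of these lay on NW_022145594.1 from 10524975 to 10525420, and its fold enrichments were 26.5 and 28.9 at 11 hpf and 6.76 in the single later list, replicate 1 of 72 hpf. The next, on NW_022145606.1 from 11814278 to 11814561, had 17.3 and 15.9 at 11 hpf and 10.04 in replicate 2 of 24 hpf. A further pair were on short scaffolds, with 16.2 and 14.7 at 11 hpf and 18.1 in replicate 1 of 66 hpf (NW_022144920.1, 846 to 1194), and with 14.5 and 13.8 at 11 hpf and 16.3 in the same later list (NW_022145118.1, 2761 to 3385). The last of the 5, on NW_022145560.1 from 518362 to 518635, had 13.7 and 12.2 at 11 hpf and 6.88 in replicate 1 of 24 hpf. Such a region is left out by 1 list even where the other 5 later lists hold no peak. The list that left out most of the 1401 regions was 24 hpf replicate 2 (376), followed by 24 hpf replicate 1 (322).

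At the other edge, the weakest early-only regions only just entered 1 of the lists. The weakest, on NW_022145612.1 from 5475998 to 5476175, had fold enrichments of 3.04 and 4.42 from pileups of 9 and 14 reads. The next 4 had 2.96 to 3.18 in replicate 1 and 4.05 to 5.69 in replicate 2, so in all 5 the weaker replicate was replicate 1. Their −log10 p in replicate 1 was 3.86 to 3.91, against a median of 7.25 over all early-only regions.

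Early-only regions mostly lay a few kb from the nearest later peak. The median distance to the nearest later peak was 3368.5 bp (95% interval of the median 3190 to 3532 bp), and to the nearest shared region 26967.5 bp. A later peak lay within 1 kb of 789 early-only regions (22.4%, 21.0 to 23.8%). The same measure, to any peak of another stage, was 38.1% for regions called only at 24 hpf, 37.3% for those only at 66 hpf and 44.6% for those only at 72 hpf. The lists of other stages differ in length between these sets, which moves the distances too, and the difference was not tested. Beyond 5 kb from any later peak lay 1279 early-only regions, and beyond 50 kb lay 27, of which 2 were on scaffolds with no later peak at all.

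**Figure D4:**
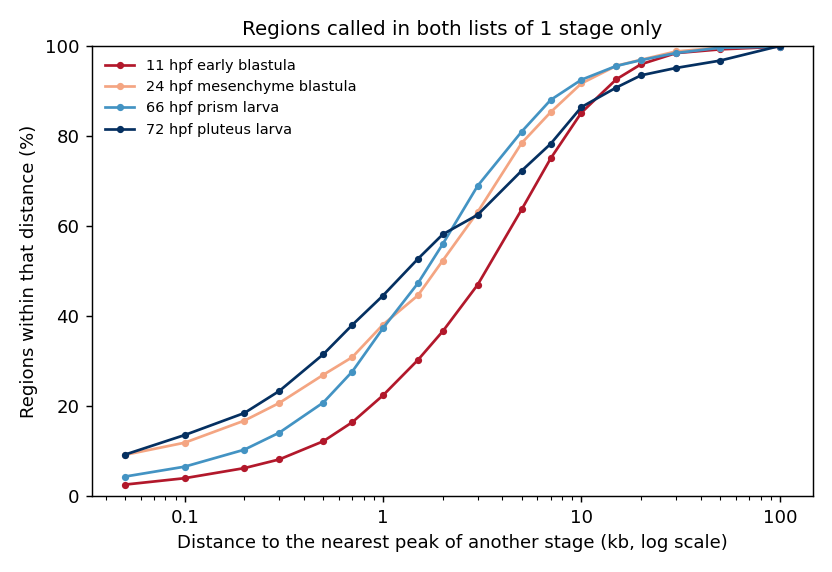
Share of regions called in both lists of 1 stage only, in %, that lie within a given distance (kb, log scale) of the nearest peak of another stage. The curve of the early-only regions (dark red) runs below the others up to 10 kb and reaches 22.4% at 1 kb, against 37.3 to 44.6% for the other stages.

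The most isolated early-only region was 210.6 kb from any later peak, on NW_022145614.1 from 17559329 to 17559609, and its fold enrichments were 5.67 and 6.67. A second on the same scaffold, from 17586892 to 17587191, had 6.47 and 5.87 and lay 183.0 kb from a later peak. On NW_022145595.1 the region from 69853 to 69971, near the scaffold's start, had 7.27 and 7.97 at a distance of 187.1 kb. On the large scaffolds 1.15% of early-only regions (0.816 to 1.56%) lay within 200 kb of an end, against 1.297% of shared regions (1.04 to 1.60%) and 0.953% of all merged regions (0.896 to 1.012%).

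The 21 large scaffolds, whose last peak ended beyond 10 Mb, held 3402 of the early-only regions. Their density ran from 2.08 to 5.80 per Mb, and they made up 29.5 to 37.8% of the regions of both 11 hpf lists on each. Early-only regions were thus a like share of early open chromatin on every large scaffold. Most stood alone. With gaps of less than 5 kb, 3067 had no other beside them, and 455 (12.9%) formed 208 groups of 2 or more, against 13.5% of shared regions with another shared region within 5 kb. Within 1 kb of another of their set lay 8.01% of early-only regions (7.13 to 8.95%) and 6.12% of shared regions (5.56 to 6.72%), and within 50 kb 53.2% of early-only and 69.2% of shared regions. The sets differ in size, and later peaks can join neighbouring peaks into 1 shared region. Both also move these shares, and the difference was not tested.

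Among scaffolds with more than 1 early-only region, the short scaffold NW_022145538.1 had the highest density. It held 15, or 25.7 per Mb, and 14 of these lay in 44.2 kb, from 329852 to 374092. In that interval 23 merged regions were found, of which 14 were early-only, 8 were called in a single 11 hpf list and nowhere else, and 1 held a later peak. The 2 early lists had 19 peaks each there, against 2 in 24 hpf replicate 1 and none in the other 5 later lists. Outside the interval the later lists had 8 to 25 peaks on the same scaffold, so it was not without later calls.

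**Figure D5:**
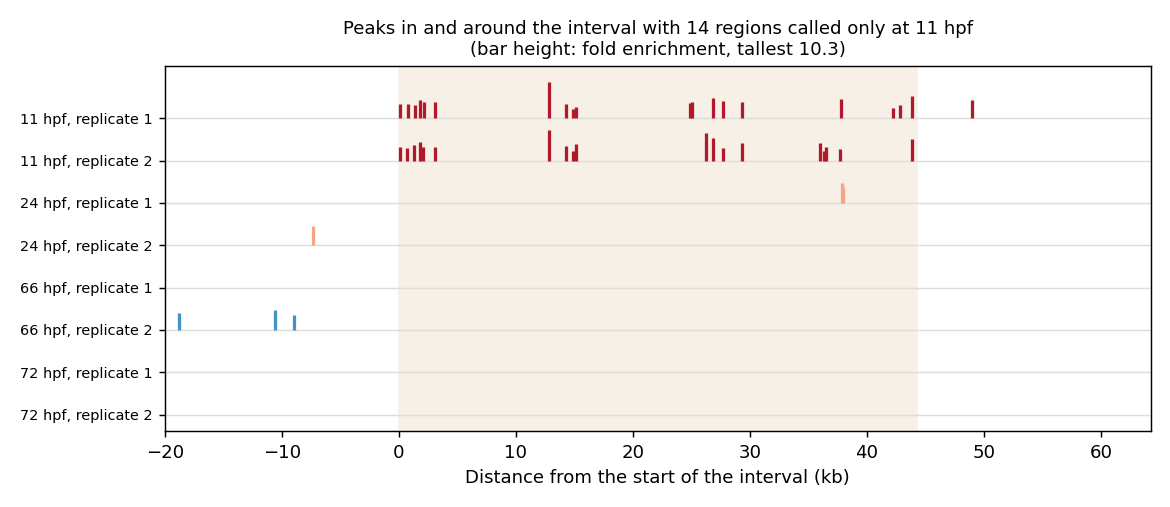
Peaks of the 8 lists in and around the interval (shaded), by distance from its start in kb, with bar height giving the fold enrichment (tallest 10.3). The 2 early lists hold 19 peaks each in the interval, 24 hpf replicate 1 holds 2 between 37.8 and 38.0 kb from its start, and the other later lists hold none.

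Within the interval the strongest region ran from 342394 to 343011, and its fold enrichments were 10.3 and 8.67, from pileups of 89 and 49 reads. A row of 6 regions in 3.24 kb, from 329852 to 333091, had fold enrichments of 3.85 to 5.35 in replicate 1 and 3.58 to 5.43 in replicate 2. The local background of that row was 5.52 to 5.66 times that of the genome in replicate 1 and 3.22 to 3.38 times in replicate 2. At the far end, the region from 373368 to 374092 had 6.42 and 6.11, and there replicate 2 had the higher background, at 8.98 times against 4.29 times in replicate 1. The replicates thus differed in where along the interval reads were densest. The 2 peaks of 24 hpf replicate 1 had pileups of at most 9 reads over a background equal to that of the genome, where the 11 hpf background was 3.30 times in replicate 1 and 10.7 times in replicate 2. The interval was not paired with a gene in the sources used here.

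Other dense groups differed in their surroundings. On NW_022145615.1, 6 early-only regions lay between 1369384 and 1375739, with low fold enrichments (2.22 to 3.56 in replicate 1) over backgrounds of 13.7 to 18.1 times in replicate 1 and 11.1 to 14.3 times in replicate 2. Later peaks within 5 kb had backgrounds of 4.80 to 15.0 times at 24 hpf, 3.72 to 5.40 times at 66 hpf and 4.03 to 5.16 times at 72 hpf. On NW_022145610.1, 4 lay between 34694993 and 34700488, over backgrounds of 9.51 to 11.4 times and 8.73 to 10.2 times, against 1.91 to 2.98 times at the later peaks within 5 kb. On NW_022145614.1, 5 lay between 27159426 and 27169362 over backgrounds of 1.61 to 2.70 times in replicate 1 and 1.301 to 2.00 times in replicate 2, with 4 later peaks between them. The fifth group, 4 regions in 2.73 kb from 342394 to 345126, belongs to the interval of NW_022145538.1.

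Few early-only regions could be tied to genes, because the gene table used here gives no scaffold for nearly all genes. Spans could be placed for 809 of 33503 genes, those that the study's supplementary tables pair with a scaffold. Of the early-only regions, 105 lay in or across the span of 90 such genes, of which 86 code for protein and 2 are long non-coding RNAs. Most of these genes lie on NW_022145597.1 and NW_022145598.1, so the counts are no genome-wide share. The shares of shared regions and of all merged regions in these spans are not given here, so the count marks no trait of early-only regions. LOC580497 had 4 early-only regions in its span, the most of any placed gene, and LOC577828 had 3. The strongest within a span lay in LOC588223, on NW_022145597.1 from 29861135 to 29861614, and its fold enrichments were 6.61 and 6.85. Another on that scaffold, from 34086964 to 34087212, overlapped the ribosomal RNA gene LOC115922903 and had 9.70 and 7.97. Ribosomal RNA genes are often present in many copies, and how reads of several copies were placed was not tested.

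The study's own annotation, held here in part only, pairs some of the regions with a gene, as a promoter (over its start), proximal (within 5 kb upstream of a start) or distal, and the classes were not counted. It gives the region at LOC115922903 as a promoter, and so the one at LOC584440, on NW_022145598.1 from 22710855 to 22710968, and its fold enrichments were 6.96 and 7.67. The gene LOC115922523 had 2 early-only regions assigned to it on NW_022145597.1, a distal one from 32008142 to 32008384 with 10.5 and 7.13 and a proximal one from 32019552 to 32019824 with 6.47 and 6.71. On NW_022145547.1, LOC105441437 had 2 that lay 42 bp apart, with fold enrichments of 7.58 and 5.87 in the first and 7.52 and 6.29 in the second.

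None of the 41 uniquely mapping regulatory elements that earlier studies had tested overlapped an early-only region, for which the exact interval reaches up to 8.60%, and the limit of 3 counts of the total is 7.32%. Of the same elements, 9 overlapped a region of both 11 hpf lists and 29 overlapped any merged region. Within 20 kb of such elements lay 11 early-only regions (0.312% of them) at 7 of the 21 genes, against 33 shared regions (0.489%) at 15 genes and 272 of all merged regions (0.236%) at all 21. The largest number was at *nodall*, which encodes Nodal, a signal that patterns the oral ectoderm, with 4.

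At *nodall*, on NW_022145595.1, the early-only regions ran from 2644208 to 2644594, 2645567 to 2645739, 2652516 to 2652725 and 2654203 to 2654673. Their fold enrichments were 4.03 and 4.42, 3.86 and 3.64, 2.93 and 2.95, and 3.99 and 2.92 in replicates 1 and 2. The last lay 76 bp from the tested element INT, and between these regions stood 2 that all 6 later lists called and neither early list did. In the same order, the nearest later peak was 3800, 2684, 299 and 203 bp away. Local backgrounds were 4.88 and 4.42 times that of the genome at the third region and 4.76 and 4.47 times at the last. In the replicate 1 list the last stood at the strongest 8.92% of peaks, but in the replicate 2 list at 83.1%. The merged region at element 3P, from 2654690 to 2655151, missed the rule by 1 peak. It had fold enrichments of 3.83 and 4.16 at 11 hpf, and a peak of 24 hpf replicate 1 with 3.07 lay in the same merged region.

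The other named genes are those with an early-only region near a tested element or in a placed span, so they show no group of genes. *SM50*, a spicule matrix protein of the larval skeleton, had one inside its span, on NW_022145602.1 from 7408679 to 7408961 (4.11 and 3.64), and one from 7429492 to 7430217 (4.67 and 5.21). *Alx1*, a homeobox factor of the skeleton-forming cells, had one inside its span on NW_022145603.1, from 14660496 to 14660885 (4.96 and 4.02). The *pks1* gene (LOC588806), which encodes a polyketide synthase of pigment cells, had one inside its span on NW_022145610.1, from 2722586 to 2722911 (3.20 and 3.81), with its nearest later peak 6324 bp away. All these values are fold enrichments in replicates 1 and 2 of 11 hpf.

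Regions were also found at genes with other roles. In *otx*, a homeobox gene used in several territories, one lay inside the span on NW_022145611.1 from 20241669 to 20242138, with 3.55 and 4.24 from pileups of 34 and 36 reads, and it stood in the strongest 11.4% and 6.62% of the 2 lists. Near *prdm1* (*blimp1*), a repressor of the endomesoderm network, one lay from 33444655 to 33444946 on NW_022145607.1, with 3.64 and 3.75. Near *sox14* (*soxB2*), a SOX factor of the ectoderm, one lay from 22055818 to 22056032 on NW_022145597.1, with 4.26 and 4.32. Near the cyclin D gene LOC115927903 one lay from 1962026 to 1962150 on NW_022145558.1, with 3.70 and 4.20 from 9 reads in each replicate. The histone variant gene *H2A.F/Z* had 2 at its span, from 16351854 to 16352028 (4.14 and 4.07) and from 16352475 to 16352773 (3.67 and 3.92) on NW_022145595.1. Distances to the nearest later peak were 443 bp at *otx*, 440 bp at *prdm1*, 3104 bp at *sox14* and 841 bp at cyclin D. At *H2A.F/Z* they were 4938 and 5559 bp. Scaled 11 hpf values of the cyclin D region did not pass in all 6 later lists.

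Of 29 gene names of early development looked up, 12 were in the gene table and 6 could be placed on a scaffold. *otx* and *Alx1* had 1 early-only region each in their spans and no other within 20 kb, against 4 and 6 shared regions within 20 kb. *FoxA*, *Hbox7* and *gcm* had no early-only region within 20 kb, against 6, 4 and 2 shared regions, and *delta* had neither. The hatching enzyme gene *HE*, the protease gene *SpAN*, *PMAR1*, *CHRD*, *SoxB1* and *ets1* were in the table with no scaffold and were not placed here.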

How the data were processed

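ATAC-seq peak lists of 8 sea urchin libraries were used, and the 6 sea star lists were not used here. Per the submitters' notes and the study's methods, reads were aligned to Spur_5.0 with Bowtie2, duplicates were removed with SAMtools, read ends were offset by +4 or -5 bp, fragments under 130 bp were kept, and MACS2 called peaks in each replicate. The deposited lists give, per peak, its coordinates, a score (not used), the fold enrichment (a ratio) and, on a −log10 scale, its p-value and q-value, as the authors' peak caller wrote them. The lists hold no read counts. The study went on to keep only peaks that were reproducible between replicates, whereas the lists used here are those of single replicates, without that step. Early-only regions are therefore not the study's own set of open regions.

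Peaks were merged and compared with Python 3.11.15, numpy 2.4.6, pandas 2.3.3 and scipy 1.17.1, plots were drawn with matplotlib 3.10.9, and merging was checked against bedtools 2.31.1 and tested on simulated data. The strongest peak of a list stood for its region. Summit pileup and local background were solved from fold enrichment and p-value to within 5e-05 in −log10 p. At least 99.99% of peaks of each list gave a whole pileup, and backgrounds above the genome's came in steps of 0.01, as reads extended to 100 bp and counted over 10 kb give. Intervals of shares are exact binomial, and those of medians come from order statistics.

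The rule for named regions took the 10 members with the highest −log10 p in the weaker replicate, the 5 widest, the 5 densest groups, the 5 at either edge of the rule, and members at tested elements or genes placed by the study's tables. Of the members at annotated stretches the text names the strongest and those that share a gene. The members and lists were chosen with earlier results of these data known. The weakest members, the most isolated ones, the local backgrounds around named regions, the scaling to depth and the counts of regions near elements were added after the data were seen. No genome sequence was at hand, so no sequence is shown.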

Additional observations from a re-analysis of the deposited data

Results flagged for a closer look

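Peaks on the mitochondrial genome, which the merged regions leave out, numbered 9 in replicate 1 and 9 in replicate 2 of 11 hpf, against 8 and 9 at 24 hpf, 8 and 11 at 66 hpf and 11 and 10 at 72 hpf. They are given because they lie in data that no comparison above uses, and no early-only region rests on them.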

How the results depend on the processing

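No paired analysis was possible because no result comes from a test. The regions chosen depend on the lists required. The number of early-only regions (3522) was 2113 where the 11 hpf peaks had to cover 50% of each other, and 5519 where only regions of both lists of a later stage were left out. Leaving out 1 list gave 3661 to 19948, with 13676 without replicate 1 and 19948 without replicate 2 of 11 hpf, since 1 early list then sufficed. In the same order of results, leaving out 1 list gave a share of the regions of both 11 hpf lists (34.3%) of 35.7 to 59.7%, a median fold enrichment (4.30 over both replicates) of 4.04 to 4.32, a median width (239 bp) of 120 to 242 bp, a share with a later peak within 1 kb (22.4%) of 20.3 to 25.5%, a share with another such region within 5 kb (12.9%) of 12.9 to 38.1%, and 0 to 1 tested elements.

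The share of the regions of both 11 hpf lists was 31.4% at q of at most 0.001 in every list, 29.4% with that limit at 11 hpf only, 32.7% with 50% cover, 39.5% with 19459 top peaks of each list, 53.7% with exclusion by both lists of a stage, 30.1% without regions that had a later peak within 500 bp, and 31.8% among regions whose scaled 11 hpf values passed in all 6 later lists (passing regions). The median fold enrichment was 4.52 under both q limits, 4.37 with 50% cover, 4.70 with equal top peaks, 4.39 with exclusion by both lists, 4.43 among passing regions and 4.36 without high backgrounds. The median width was 251 and 250 bp under the q limits, 211 bp with 50% cover, 252 bp with peaks within 100 bp merged, 268 bp with equal top peaks, 260 bp with exclusion by both lists and 246 bp among passing regions. The share with a later peak within 1 kb was 19.7% with the q limit in every list, 19.2% with peaks within 100 bp merged, 12.01% with equal top peaks, 50.5% with exclusion by both lists and 11.6% without regions that had one within 500 bp. The share with another such region within 5 kb was 11.6 and 11.1% under the q limits, 9.89% with 50% cover, 10.3% with peaks within 100 bp merged, 11.8% with equal top peaks and among passing regions, 15.7% with exclusion by both lists and 11.1% without high backgrounds. Of the tested elements, 1 overlapped an early-only region with equal top peaks and with exclusion by both lists. The scaling and background settings were chosen after seeing the data. The cause of these shifts was not tested.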
